A study of Rattus norvegicus with 18 samples.

Results

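Genes for stretch-sensing and LIM-domain proteins of the Z-disc were followed in cultured rat heart muscle cells. The 9 genes were listed by name as a protein family (Ankrd1, Ankrd2, Ankrd23, Csrp3, Fhl1, Fhl2, Xirp1, Xirp2 and Nrap), and rows of the deposited table with these symbols were taken. Of the 9, 8 were among the 17303 rows; Xirp1 was not analysed here. The members were chosen by family name with earlier results of these data known, and which values weighed in the choice is not recorded. The known results were FPKM levels of Ankrd1, Csrp3 and Xirp2 with phenylephrine against vehicle and with inhibitor plus phenylephrine against phenylephrine. Member values in those comparisons, and in any comparison they fix, are therefore given as a description without p-values. Where such a comparison has a count of members past the threshold, it is printed beside the share of all rows and nothing is read from it. The inhibitor given alone, and phenylephrine given on top of the inhibitor, were tested. Except for the comparison of the inhibitor doses without phenylephrine, each of these tests shares a group with the known comparisons. The p-values of those tests do not allow for the choice of members.

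Ventricular myocytes of Wistar rats at postnatal day 3 (P3) were studied in 18 libraries, 3 in each of 6 groups. The agent phenylephrine (PE) stimulates alpha1-adrenergic receptors and makes cultured myocytes enlarge, and its dose was 10 µM. It was given alone (PE), with Senexin A at 10 µM (PE+S10) or with Senexin A at 50 µM (PE+S50). The groups without PE had no inhibitor (Vehicle), Senexin A at 10 µM (S10) or Senexin A at 50 µM (S50), and treatment lasted 48 h with a change of medium at 24 h. Senexin A inhibits CDK8, a kinase of the Mediator complex. All 6 groups shared 48 h of AraC, which kills dividing cells, and 24 h without serum. The labels do not say whether the 3 libraries of a group came from separate cultures or litters, so p-values measure only the spread between these libraries, which may be technical in part.

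The Z-disc anchors actin and titin at the ends of each sarcomere, and proteins there also sense load. Ankrd1, Ankrd2 and Ankrd23 belong to 1 family of muscle ankyrin-repeat proteins that bind the elastic part of titin and can also enter the nucleus. Csrp3 (muscle LIM protein), Fhl1 and Fhl2 consist mainly of LIM domains, zinc-binding modules that hold other proteins. Xirp2 carries the actin-binding Xin repeats and sits at the intercalated disc, and Nrap combines a LIM domain with nebulin-like repeats and takes part in building myofibrils. Ankrd1 is a classic marker of hypertrophic growth, and loss of Csrp3 causes dilated hearts in mice.

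Promoter sequence is shown for members whose levels moved in different ways across the groups. Whether these genes share regulation was not tested. RefSeq windows on the GRCr8 build were matched by symbol for 6 of the 9 members (Ankrd2, Ankrd23, Fhl1, Fhl2, Xirp1 and Xirp2), 10 windows in all since some genes have more than 1 annotated start. The 250 bases before each annotated start were searched on both strands for 5 motifs. MEF2 and the CArG box were searched under their usual definitions. The MCAT element was read as CATTCC, the AP-1 site was read as TGACTCA on either strand, and the GATA site was read as GATAAG. Of 33469 such rat windows, 2.96% held a MEF2 match, 1.5% a CArG box, 12.1% MCAT, 4.05% AP-1 and 6.18% GATA. The 150 bases nearest the start follow, 5′ to 3′ on the gene's strand, with every match in capitals. They lie at chr3:72534036-72534185 (Xirp2, plus strand), chrX:139638346-139638495 (Fhl1, plus strand), chr9:52954541-52954690 (Fhl2, minus strand) and chr9:46274511-46274660 (Ankrd23, minus strand).
Xirp2: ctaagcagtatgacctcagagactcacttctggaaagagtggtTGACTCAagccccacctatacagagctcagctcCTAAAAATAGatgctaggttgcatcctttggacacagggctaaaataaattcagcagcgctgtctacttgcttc
Fhl1: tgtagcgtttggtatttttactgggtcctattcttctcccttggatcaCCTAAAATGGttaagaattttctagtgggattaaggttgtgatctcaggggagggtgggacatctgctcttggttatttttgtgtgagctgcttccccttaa
Fhl2: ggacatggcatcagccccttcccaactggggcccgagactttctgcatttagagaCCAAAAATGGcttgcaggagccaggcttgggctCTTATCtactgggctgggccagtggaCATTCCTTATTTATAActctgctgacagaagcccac
Ankrd23: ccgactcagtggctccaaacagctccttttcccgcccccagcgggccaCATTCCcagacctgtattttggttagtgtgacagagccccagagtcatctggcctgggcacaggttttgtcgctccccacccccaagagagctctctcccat
The Xirp2 window held an AP-1 match and a MEF2 match, which start at -107 and -74 from the annotated start. The Fhl1 window shown held a CArG box at -102, and the other Fhl1 window held no match. The Fhl2 window shown had a CArG box at -95, a GATA match read on the other strand at -62, and MCAT at -36 directly followed by MEF2 at -30. The other Fhl2 window held a CArG box at -58. Ankrd23 had MCAT at -102. No 2 of these matches overlap. The Ankrd2 window, not shown, held no match. For Xirp1, also not shown, overlapping windows shared a MEF2 match and an AP-1 match, and the remaining window held none. A match describes letters only, and which start site these cells used was not measured.

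Levels are FPKM (fragments per kilobase of transcript, scaled to the mapped fragments of the library), and those of a library summed to between 610324 and 910958. The sum was 610324 to 660958 in Vehicle, 699695 to 746492 in S10 and 755249 to 826406 in S50. With PE it was 810428 to 853958 in PE, 839441 to 910958 in PE+S10 and 790067 to 897706 in PE+S50. Every Vehicle library thus lay below all others, and the part of this in the differences between groups was not tested. Relative depth, read from the steps between low values, ran from 0.833 to 1.11 of Vehicle replicate 2, while absolute depth is unknown. Cardiomyocyte markers were abundant in every group: all 6 listed genes were present, and their summed level was 89979 to 107831 FPKM in PE, against 34708 to 49119 in Vehicle. The same sum was 72919 to 92245 in PE+S10, 48980 to 62545 in PE+S50, 50109 to 64788 in S10 and 35986 to 56349 in S50. Of 7 fibroblast markers, Col1a2 was under 1 FPKM in all libraries while the summed level was 1160 to 1916 FPKM in PE, 842 to 1711 in PE+S10 and 600.0 to 1196 in PE+S50, with 1738 to 3022 in Vehicle, 1629 to 3147 in S10 and 951 to 1300.1 in S50. Sums for the 5 endothelial markers stayed at 0.957 to 6.66 FPKM and those for the 4 macrophage markers at 2.79 to 34.99 FPKM, with Cdh5, Kdr and Cd163 under 1 FPKM in every library. Markers of smooth muscle, of which there were 4, summed to 3786 to 5690.01 FPKM in PE, 3158 to 4207 in PE+S10 and 1798 to 1953 in PE+S50, against 4503 to 6088 in Vehicle, 3822 to 4995 in S10 and 1774 to 2778 in S50. Because these are bulk cultures, fewer cells of a type and less RNA per cell cannot be told apart, and the part that cell composition has in the results was not tested. Among skeletal muscle markers Tnnt3, Tnni2, Myh4, Myod1 and Myog were under 1 FPKM in all libraries. The sixth, skeletal alpha-actin (Acta1), which neonatal heart muscle also expresses, made up that list's sum of 2838 to 3396 FPKM in PE, 5009 to 6076 in PE+S10 and 1310 to 1627 in PE+S50, with 156 to 221 in Vehicle, 871 to 1549 in S10 and 1334 to 1683 in S50. Values at the smallest number in the table, 0.01 FPKM, are called the floor here and say only that a gene is listed there.

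Ankrd1 was the most abundant member in every library. It ranked from 6 to 8 among all rows in PE libraries and from 17 to 22 in Vehicle libraries. The 8 members together made up 1.55% to 1.72% of all FPKM in PE, against 0.530% to 0.655% in Vehicle, and Ankrd1 alone was 52.9% to 56.0% of the member sum in PE. That share was 70.2% to 72.0% in PE+S50 and 59.0% to 63.4% in Vehicle.

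**Figure D1:**
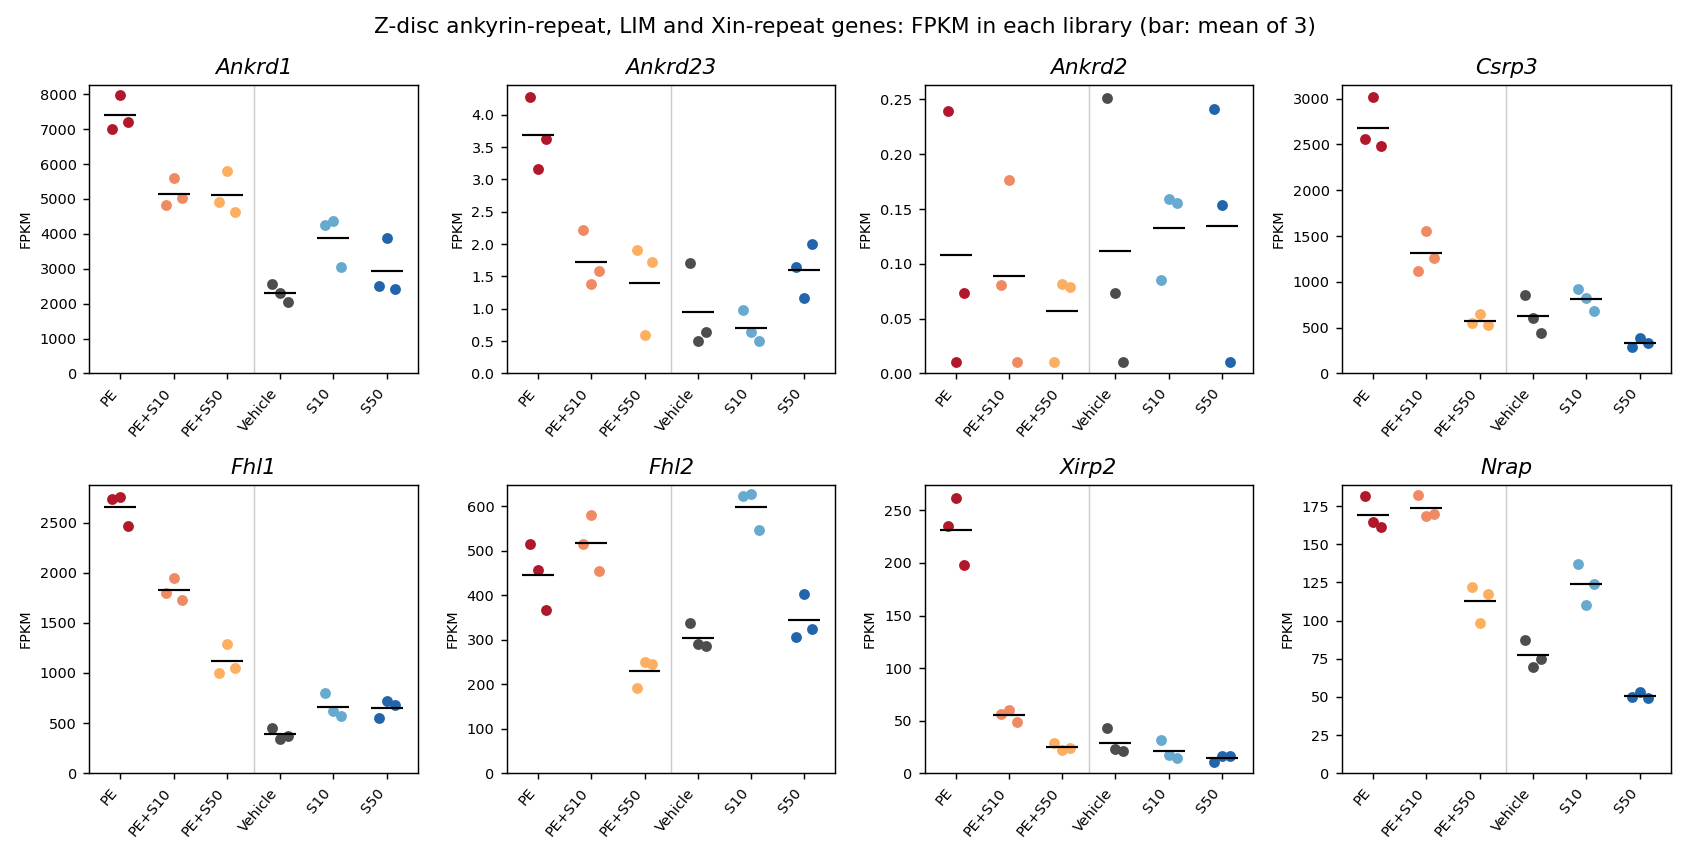
FPKM of each member in the 18 libraries, with 1 point per library and a bar at the mean of 3; groups with PE are left of the grey line and groups without PE right of it, each in order of Senexin A dose, and every panel has its own axis from 0. PE has the highest points for Ankrd1, Ankrd23, Csrp3, Fhl1 and Xirp2, S10 has the highest mean of Fhl2, and PE and PE+S10 share the top for Nrap.

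Ankrd1 (rn5 chr1:262038139-262046691) had 6996, 7972 and 7213 FPKM in PE, 4814, 5609 and 5031 in PE+S10, and 4901, 5801 and 4629 in PE+S50 (replicates 1, 2 and 3, an order kept for all genes). Without PE it had 2555, 2294 and 2042 FPKM in Vehicle, 4243, 4373 and 3038 in S10, and 2511, 3871 and 2411 in S50. All PE libraries lay above all others, and PE+S10 and PE+S50 overlapped each other and lay above every library without PE. S10 lay above Vehicle, while S50 overlapped both S10 and Vehicle.

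Ankrd23 (chr9:42764891-42771491), a relative first described as responsive to diabetes, was a low-level gene. It had 4.27, 3.15 and 3.63 FPKM in PE, 2.21, 1.38 and 1.59 in PE+S10, and 1.91, 0.588 and 1.72 in PE+S50. Without PE its levels were 1.70, 0.506 and 0.633 FPKM in Vehicle, 0.978, 0.639 and 0.507 in S10, and 1.65, 1.17 and 2.00 in S50. PE stood apart from every other group, and the other groups overlapped their neighbours in the order of means. Ankrd2 (chr1:268734330-268743779), the family member known mainly from slow skeletal muscle, was at the floor or at most 0.251 FPKM in all 18 libraries and did not enter the tests.

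Csrp3 (chr1:105206458-105217109) had 2557, 3013 and 2478 FPKM in PE, 1119, 1558 and 1258 in PE+S10, and 556, 647 and 529 in PE+S50. In the groups without PE it had 853, 600.3 and 443 FPKM in Vehicle, 924, 825 and 677 in S10, and 286, 389.7 and 329 in S50. The 3 groups with PE did not overlap and stepped down with dose. PE+S50 fell inside the range of Vehicle, and S50 was below every other group.

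Fhl1 (chrX:153743579-153803160) had 2739, 2757 and 2469 FPKM in PE, 1798, 1948 and 1726 in PE+S10, and 1004, 1293 and 1050.3 in PE+S50. Without PE it had 449.7, 342 and 368 FPKM in Vehicle, 797, 621 and 569 in S10, and 549, 724 and 678 in S50. The groups with PE again stepped down with dose without overlap. Both inhibitor groups without PE lay above Vehicle and overlapped each other.

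Its relative Fhl2 (chr9:49591626-49620648), a LIM protein that is plentiful in heart, had 515, 457 and 367 FPKM in PE, 515, 581 and 454 in PE+S10, and 191, 251 and 246 in PE+S50. Without PE the values were 337, 291 and 286 FPKM in Vehicle, 624, 627 and 546 in S10, and 307, 403 and 324 in S50. S10 had the highest mean, and PE+S50 lay below all other groups. The ratio of Fhl1 to Fhl2 level was 5.32 to 6.72 in PE, against 1.17 to 1.33 in Vehicle. With the inhibitor the ratio was 3.36 to 3.80 in PE+S10 and 4.27 to 5.27 in PE+S50, and without PE it was 0.991 to 1.28 in S10 and 1.79 to 2.09 in S50.

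Xirp2 (chr3:60181188-60274634) had 235, 262 and 198 FPKM in PE, 56.7, 60.1 and 48.5 in PE+S10, and 29.1, 21.8 and 24.2 in PE+S50. Its levels without PE were 43.1, 22.9 and 21.3 FPKM in Vehicle, 31.2, 17.6 and 14.7 in S10, and 10.6, 16.3 and 16.1 in S50. PE stood far above all other groups, and PE+S10 still lay above every library without PE. PE+S50 overlapped Vehicle and S10.

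Nrap (chr1:284451954-284562973) had 182, 164 and 161 FPKM in PE, 182, 169 and 170.1 in PE+S10, and 122, 98.7 and 117 in PE+S50. Its levels were 87.0, 69.7 and 75.0 FPKM in Vehicle, 137, 110.5 and 124 in S10, and 49.9, 53.0 and 49.2 in S50. PE and PE+S10 overlapped at the top, and S50 was below Vehicle with no overlap. The table gives Habp2 the same locus as Nrap, so reads could have been split between them. Habp2 was at or under 0.445 FPKM in every library.

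PE was compared with Vehicle to describe the hypertrophic stimulus. All 7 members that entered the tests were higher in PE with no overlap, beside 25.7% of all 10478 rows tested. All 7 passed an adjusted p under 0.05 in limma's fit, beside 17.9% of all rows called higher. That comparison was known when the members were listed, so nothing is read from the count. Xirp2 averaged 232 ± 32.1 FPKM in PE and 29.1 ± 12.1 in Vehicle (SD, n = 3 each), a log2 difference of 3.01 ± 0.26 (SE). Fhl1 averaged 2655 ± 161 FPKM in PE and 387 ± 56.2 in Vehicle. Its log2 difference was 2.78 ± 0.14 (2.44 after quantile normalization), and Csrp3 differed by 2.13 ± 0.20. Ankrd1 differed by 1.69 ± 0.17 (1.00 after quantile normalization) and Ankrd23 by 1.31 ± 0.24 (2.02 with a pseudocount of 0.1). The smallest differences were 1.12 ± 0.10 for Nrap (0.95 after quantile normalization) and 0.54 ± 0.14 for Fhl2 (0.23 after quantile normalization). Summed cardiomyocyte markers were also higher in PE than in Vehicle, and the part of this in these differences was not tested. Among all rows called, 58.5% were higher in PE, and 47.6% after quantile normalization.

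Inhibitor added to PE was then described. At 10 µM, 5 members had PE+S10 libraries entirely below PE libraries, beside 16.8% of all rows: Xirp2 at -2.05 ± 0.26 on the log2 scale, Csrp3 at -1.04 ± 0.20, Ankrd23 at -0.78 ± 0.24, Fhl1 at -0.54 ± 0.14 and Ankrd1 at -0.52 ± 0.17. Fhl2 (0.22 ± 0.14) and Nrap (0.04 ± 0.10) overlapped between PE+S10 and PE. With a pseudocount of 0.1 the difference for Ankrd23 was -1.06. In limma's fit 4 of the 7 were called lower, beside 7.84% of all rows (2 of 7 without PE replicate 2), and nothing is read from the count. At 50 µM all 7 lay below PE with no overlap, beside 30.3% of all rows, and 7 were called lower, beside 27.4% of all rows. Nothing is read from either count. The differences ran from -3.16 ± 0.26 for Xirp2 and -2.21 ± 0.20 for Csrp3 through -1.26 ± 0.14 for Fhl1, -1.005 ± 0.24 for Ankrd23 and -0.96 ± 0.14 for Fhl2 to -0.59 ± 0.10 for Nrap and -0.54 ± 0.17 for Ankrd1. Ankrd1 was at -0.38 after quantile normalization, and Ankrd23 at -1.47 with a pseudocount of 0.1. Set against PE+S10, PE+S50 was lower for Csrp3 (-1.17 ± 0.20), Fhl2 (-1.17 ± 0.14), Xirp2 (-1.11 ± 0.26), Fhl1 (-0.72 ± 0.14) and Nrap (-0.63 ± 0.10), each without overlap, beside 24.1% of all rows. Those 5 were called lower in the fit, beside 19.9% of all rows. For Ankrd1 the difference between the doses was -0.02 ± 0.17, and for Ankrd23 it was -0.22 ± 0.24. The sum of cardiomyocyte markers was also lower in PE+S50 than in PE or PE+S10, and it overlapped between PE+S10 and PE. What part this has in the differences was not tested.

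**Figure D2:**
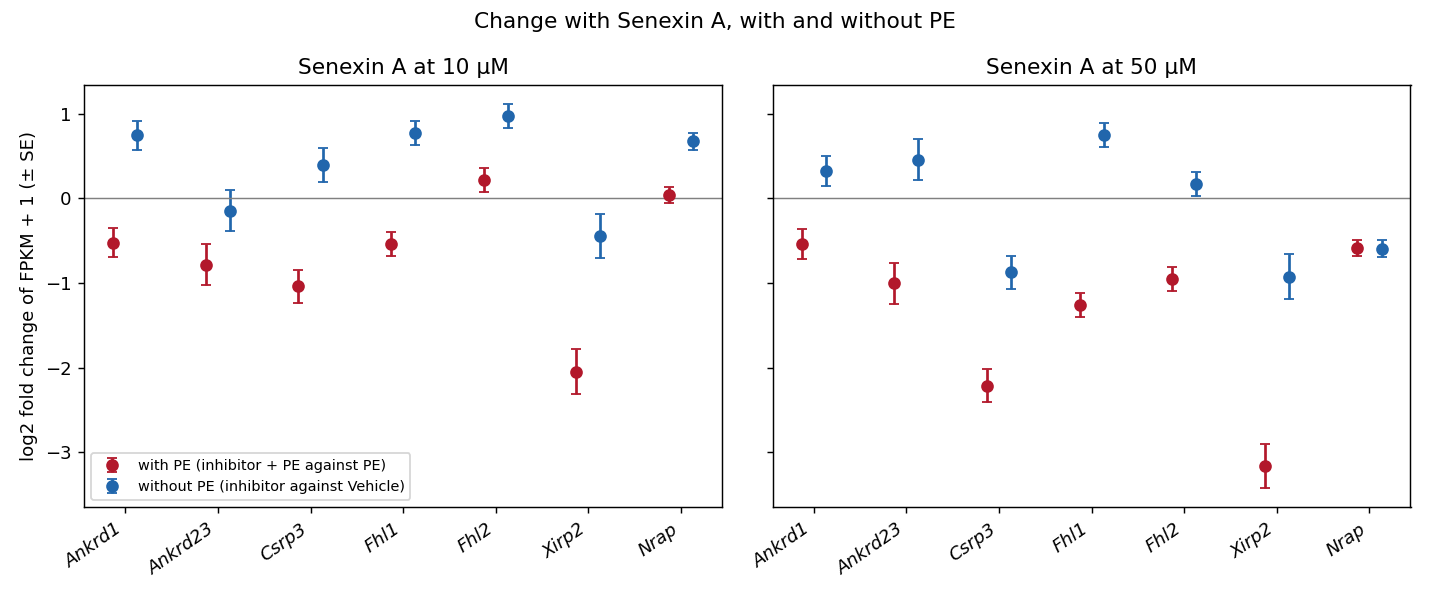
Log2 fold change of FPKM + 1 with Senexin A at 10 µM (left) and 50 µM (right) for 7 members; red points compare inhibitor plus PE with PE, blue points compare inhibitor alone with Vehicle, and bars are ± 1 SE from the limma fit. Fhl1 lies at -1.26 with PE and at 0.75 without PE at 50 µM, while Nrap lies at -0.59 in both.

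Senexin A at 10 µM without PE was tested to see what the inhibitor did to resting cells. Of the 7 members tested 4 rose, beside 9.17% of all rows. Fhl2 rose to 599 ± 45.9 FPKM in S10, against 305 ± 28.5 in Vehicle (log2 fold change 0.97 ± 0.14, limma adjusted p = 0.000328, n = 3 each). Fhl1 rose by 0.77 ± 0.14 (adjusted p = 0.00172), Ankrd1 by 0.75 ± 0.17 (0.00906; 0.47 after quantile normalization) and Nrap by 0.67 ± 0.10 (0.000305), each higher in 3 of 3 libraries than all Vehicle libraries. Csrp3 (0.39 ± 0.20, adjusted p = 0.189), Ankrd23 (-0.15 ± 0.24, 0.733) and Xirp2 (-0.44 ± 0.26, 0.28) did not pass. Without Vehicle replicate 1 Csrp3 passed (0.0317), at 0.64, and its adjusted p over the other omissions reached 0.622. Summed cardiomyocyte markers were also higher in S10 than in Vehicle, and the part of this in the result was not tested.

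At 50 µM without PE, 1 member rose and 3 fell, beside 30.5% of all rows higher and 30.2% lower. Fhl1 rose to 650.5 ± 90.7 FPKM in S50, against 387 ± 56.2 in Vehicle (0.75 ± 0.14, limma adjusted p = 0.000228), and by 0.47 after quantile normalization (0.00294). Nrap fell to 50.7 ± 2.03 FPKM in S50, against 77.2 ± 8.83 in Vehicle (-0.59 ± 0.10, adjusted p = 6.59e-05). Csrp3 fell to 335 ± 52.2 FPKM in S50, against 632 ± 207 in Vehicle (-0.87 ± 0.20, adjusted p = 0.00108), and Xirp2 fell by 0.93 ± 0.26 on the log2 scale (0.00614), which was -0.62 without Vehicle replicate 1 (0.0431). Ankrd1 was at 0.32 ± 0.17 (adjusted p = 0.12), which passed with the replicate block (0.0303) and turned to -0.20 after quantile normalization (0.237). Ankrd23 was at 0.46 ± 0.24 (0.113); it passed with the replicate block (0.0238), after quantile normalization (0.0303) and without Vehicle replicate 1 (0.0173), and its largest adjusted p over the planned settings was 0.15. Fhl2 was at 0.17 ± 0.14 (0.304), and at -0.11 after quantile normalization.

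The 50 µM and 10 µM doses were compared in the absence of PE, in libraries that the earlier results did not touch. Of the 7 members 1 rose and 3 fell, beside 25.4% of all rows higher and 24.9% lower. Nrap was lower in S50 than in S10 (-1.27 ± 0.10, limma adjusted p = 8.35e-08), as were Csrp3 (-1.27 ± 0.20, 6.38e-05) and Fhl2 (-0.80 ± 0.14, 0.000211). Ankrd23 rose by 0.61 ± 0.24 (0.0479), or by 1.09 with a pseudocount of 0.1, a call that was lost with no filter (0.0678) and without S10 replicate 2 (0.102), S10 replicate 3 (0.142), S50 replicate 1 (0.0971) or S50 replicate 3 (0.152). Ankrd1 was at -0.42 ± 0.17 (0.0547; 0.00827 with the replicate block, and 0.00104 to 0.147 over the planned settings). It also passed without S10 replicate 3 (0.0137) and without S50 replicate 2 (0.00394). Xirp2 (-0.48 ± 0.26, 0.137) and Fhl1 (-0.02 ± 0.14, 0.912) did not pass, and a p above the threshold does not show that the doses were alike. Nrap and Fhl2 were thus higher in S10 than in both Vehicle and S50, whereas Fhl1 stood above Vehicle at both doses.

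PE was also compared with no PE within each inhibitor dose. At 10 µM, 5 members rose with PE, beside 18.9% of all rows. Fhl1 rose to 1824 ± 113 FPKM in PE+S10, against 662 ± 119 in S10 (1.47 ± 0.14, limma adjusted p = 3.22e-06). Xirp2 rose to 55.1 ± 5.94 FPKM in PE+S10, against 21.2 ± 8.83 in S10 (1.41 ± 0.26, adjusted p = 0.000821), and Nrap rose by 0.49 ± 0.10 (0.00123). Csrp3 rose by 0.70 ± 0.20 (0.0128), a call lost without PE+S10 replicate 2 (0.0642) or S10 replicate 3 (0.0663). Ankrd23 rose by 0.67 ± 0.24 (0.0437), or by 1.19 with a pseudocount of 0.1, but did not pass when low rows were kept (0.0628) or in 5 of the 6 refits that left out 1 library, where the adjusted p reached 0.151; without PE+S10 replicate 2 or S10 replicate 3 only 3 members were called. Ankrd1 was at 0.42 ± 0.17 (0.0739), passed with the replicate block (0.012) and was at 0.07 after quantile normalization, where its adjusted p was 0.729. Fhl2 was at -0.22 ± 0.14 (0.25), and at -0.49 after quantile normalization, where it passed (0.002). The sum of cardiomyocyte markers was also higher in PE+S10 than in S10, and the part of this in the result was not tested.

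At 50 µM, 4 members rose with PE and 1 fell, beside 9.31% of all rows higher and 5.01% lower. Nrap rose to 113 ± 12.3 FPKM in PE+S50, against 50.7 ± 2.03 in S50 (1.13 ± 0.10, limma adjusted p = 2.59e-06). Ankrd1 rose by 0.83 ± 0.17 (0.00438; 0.052, the largest over the planned settings, when PE+S50 and S50 were fitted alone). Csrp3 rose by 0.79 ± 0.20 (0.0129), a call lost without PE+S50 replicate 2 (0.0526) or S50 replicate 1 (0.0611). Fhl1 rose by 0.78 ± 0.14 (0.0013). Fhl2 fell to 229 ± 33.3 FPKM in PE+S50, against 345 ± 51.3 in S50 (-0.59 ± 0.14, 0.0101), a call lost without PE+S50 replicate 1 (0.0608). Xirp2 was at 0.78 ± 0.26 (0.0599), higher in 3 of 3 libraries than all S50 libraries; it passed with the replicate block (0.0251) and in the compared groups only (0.0343), with an adjusted p of up to 0.1 over the planned settings. Ankrd23 was at -0.15 ± 0.24 (0.747). The share of higher rows among all called was 65.0%, and 52.6% after quantile normalization.

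**Figure D3:**
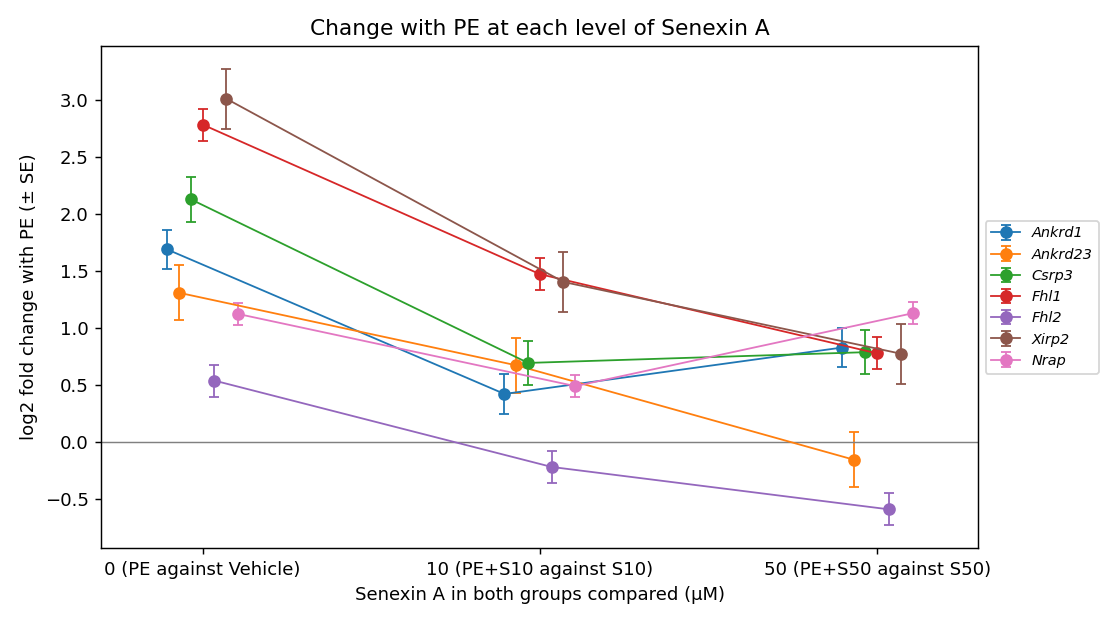
Log2 fold change of FPKM + 1 with PE at 0, 10 and 50 µM Senexin A in both groups compared (positions not to scale), for 7 members, with bars of ± 1 SE. Xirp2 lies at 3.01, 1.41 and 0.78 and Fhl1 at 2.78, 1.47 and 0.78 along the doses, Nrap at 1.12, 0.49 and 1.13, and Fhl2 at 0.54, -0.22 and -0.59.

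The difference between the PE response with inhibitor and the PE response without it is given as a description, since it contains the comparisons known beforehand. At 10 µM it was below 0 for all 7 members: -1.61 ± 0.37 for Xirp2, -1.43 ± 0.28 for Csrp3, -1.31 ± 0.20 for Fhl1, -1.27 ± 0.25 for Ankrd1, -0.76 ± 0.20 for Fhl2, -0.64 ± 0.34 for Ankrd23 and -0.63 ± 0.14 for Nrap. For Ankrd1 it was -0.93 after quantile normalization. In limma's fit 3 of the 7 were called lower, beside 0.239% of all rows, and nothing is read from this count since the known values enter it. It was 6 with the replicate block, 1 with no filter, and 1 to 5 when a library was left out. At 50 µM the difference was -2.24 ± 0.37 for Xirp2, -2.01 ± 0.20 for Fhl1, -1.46 ± 0.34 for Ankrd23 (-2.31 with a pseudocount of 0.1), -1.34 ± 0.28 for Csrp3, -1.13 ± 0.20 for Fhl2 and -0.86 ± 0.25 for Ankrd1 (-0.18 after quantile normalization). These 6 were called lower, beside 4.76% of all rows, a count from which again nothing is read. After quantile normalization the difference at 50 µM was -1.74 for Fhl1, -1.03 for Csrp3 and -0.88 for Fhl2. Nrap stood at 0.01 ± 0.14 there, and between -0.08 and 0.10 when any 1 library was left out.

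Members were compared with each other over the 18 libraries, as a description, since libraries of 1 group share their treatment. Pearson's r of log2 levels was highest between Csrp3 and Xirp2 (0.936) and between Ankrd1 and Fhl1 (0.928). The 4 lowest values were all with Fhl2, at 0.0428 for Ankrd23, 0.274 for Ankrd1, 0.283 for Xirp2 and 0.284 for Fhl1. For deviations from the group means r ran from -0.233 (Ankrd1 and Ankrd23) to 0.773 (Ankrd23 and Nrap) over the pairs, and was 0.695 for Fhl1 and Fhl2. Libraries with the same replicate number deviated together across groups, so these deviations are not independent.

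The genes most like each member were taken from 8180 other rows with a mean of at least 5 FPKM, by Pearson's r over the 18 libraries. Ankrd1 was nearest to Nppb, which encodes brain natriuretic peptide (0.927), Psen2 (0.926) and Tnnc1, the cardiac troponin C (0.925). Csrp3 was nearest to Dok5 (0.954), Itgb1bp2, the muscle integrin partner melusin (0.952), and Map4, a microtubule-binding protein (0.949). Fhl1 was nearest to Vwa7 (0.980), Ehbp1l1 (0.961) and Oxct1, an enzyme of ketone body use (0.959). Xirp2 was nearest to Rnd1, a small GTPase (0.973), Tjp1, a junction scaffold (0.965), and Sypl2 (0.961). Nrap was nearest to Pdlim5, a PDZ and LIM protein of the Z-disc (0.965), Sipa1l2 (0.952) and Myoz2, a calcineurin-binding Z-disc protein (0.949). Fhl2 was nearest to Ldhb, a lactate dehydrogenase subunit (0.932), Myom1 of the M-band (0.888) and Pdpr (0.884). Ankrd23 was nearest to Itga7, the laminin-binding integrin of muscle (0.864), Inpp5j (0.855) and Ppip5k1 (0.855).

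Other genes around these proteins were read from 4 lists, also drawn up with earlier results known: Z-disc structural proteins (18 tested of 22), other LIM-domain proteins (19 of 23), proteins of the costamere and of integrin stretch sensing (13 of 14), and transcription factors of muscle and stretch genes (11 of 15). With PE, 15 Z-disc genes, 6 LIM genes, 7 costamere genes and 3 factors rose (17.9% of all rows did) and 2 LIM genes fell (12.7% of all rows), with list medians of 0.72, 0.14, 0.35 and 0.16 beside -0.01 over all rows and 1.69 over the members. Myoz2 rose to 756 ± 15.2 FPKM in PE, against 269 ± 26.4 in Vehicle (1.49 ± 0.10, limma adjusted p = 8.1e-08), and Itgb1bp2 rose by 1.80 ± 0.26 (0.00011). The 3 factors that rose were Myocd (0.79 ± 0.20, 0.0063), Gata4 (0.51 ± 0.09, 0.00043) and Srf, the serum response factor (0.39 ± 0.07, 0.00052). Srf was also higher in S10 than in Vehicle (0.38 ± 0.07, limma adjusted p = 0.0017). It binds CArG boxes, and whether it acts on the members was not tested. With PE+S50 against PE, 11 Z-disc genes, 9 LIM genes, 11 costamere genes and 4 factors fell, beside 27.4% of all rows. In the same comparison 4 LIM genes and 2 factors rose, beside 29.3% of all rows. Results for PE against Vehicle and PE+S50 against PE were known for some members when the lists were drawn up. Nothing is read from the list counts in these comparisons, and the p-values there do not allow for that choice. Synpo2l, a Z-disc actin-binding protein, fell to 51.6 ± 17.1 FPKM in PE+S50, against 307 ± 21.6 in PE (-2.60 ± 0.20, adjusted p = 4.7e-08), and Csrp2, the smooth muscle relative of Csrp3, rose to 518 ± 83.1 FPKM, against 123 ± 38.5 in PE (2.10 ± 0.21, 4.5e-07).

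Without PE, 10 Z-disc genes, 7 LIM genes, 1 costamere gene and 5 factors rose at 10 µM, beside 9.17% of all rows, while 2 LIM and 2 costamere genes fell, beside 7.01%. Csrp2 rose to 283 ± 53.0 FPKM in S10, against 61.0 ± 10.8 in Vehicle (2.19 ± 0.21, limma adjusted p = 1.6e-05), and Actn2, the alpha-actinin that cross-links actin at the Z-disc, rose by 0.59 ± 0.10 (0.0014). At 50 µM 3 Z-disc genes, 5 LIM genes, 1 costamere gene and 2 factors rose, beside 30.5% of all rows. At that dose 8 Z-disc genes, 10 LIM genes, 7 costamere genes and 4 factors fell, beside 30.2% of all rows. Actn2 fell to 488 ± 95.0 FPKM in S50, against 775 ± 24.7 in Vehicle (-0.68 ± 0.10, adjusted p = 3.3e-05). Fhl3, another FHL gene, rose by 1.53 ± 0.28 (0.00017), and Lasp1, a LIM and SH3 protein, fell by 1.98 ± 0.13 (8.5e-09). With PE on top of 50 µM, 7 Z-disc genes, 5 LIM genes and 2 factors rose, beside 9.31% of all rows, and 1 LIM gene fell, beside 5.01%. Of the 13 costamere genes 0 passed in limma's test, and 2 had an unadjusted p under 0.05. Over the 4 lists together 15 genes passed there, and 26 with the replicate block.

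**Figure D4:**
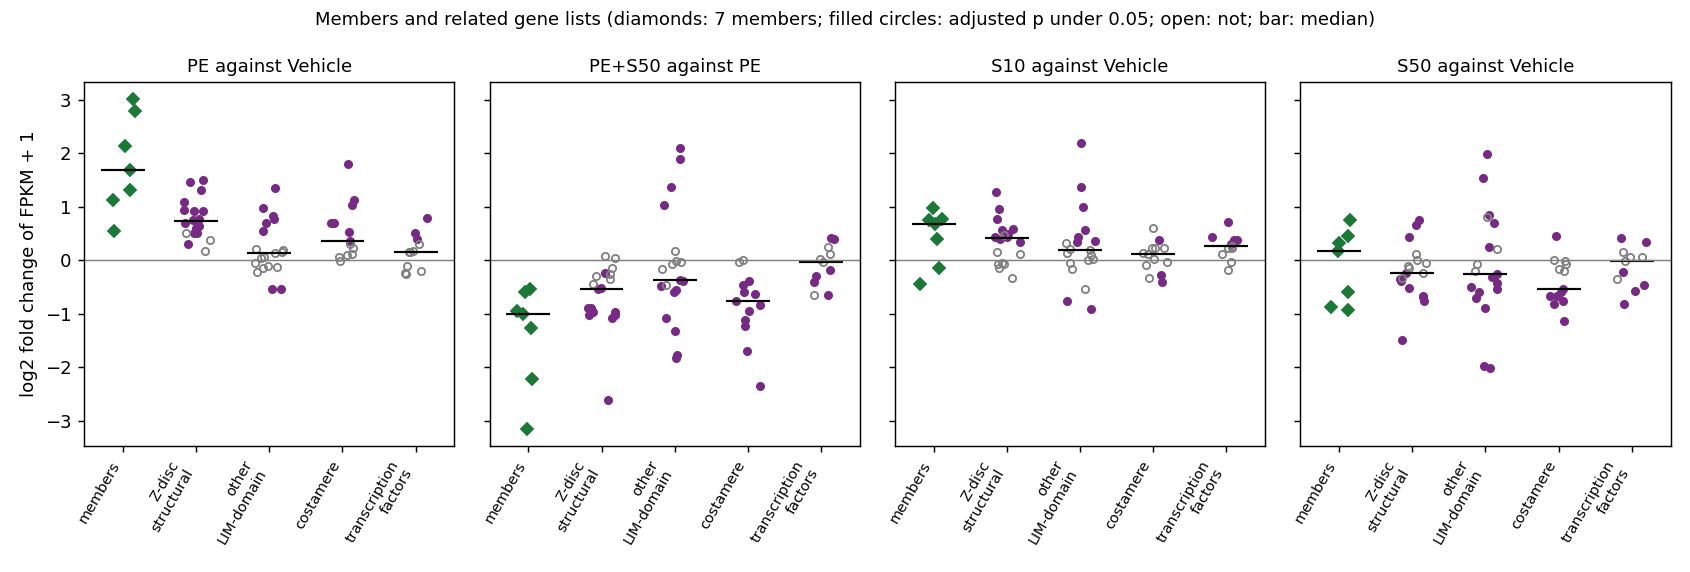
Log2 fold change of FPKM + 1 in 4 comparisons for the 7 members (diamonds) and the 4 lists (circles, filled where the limma adjusted p was under 0.05, open where not), with a bar at each median. In PE against Vehicle the member median is 1.69 and the Z-disc median 0.72, and in S50 against Vehicle the medians are 0.17 and -0.24.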

How the data were processed

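Libraries of polyadenylated RNA (TruSeq, per the labels) were deposited as 1 table of FPKM values, which the authors made with Bowtie2, Cufflinks and the rn5 build, per the submitters' processing notes; versions, annotation, filters and strand use are not given in the sources used here. Columns were matched to samples by library name. Its smallest value is a floor of 0.01 FPKM. Loci are printed as the table gives them.

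A row entered the tests if 3 or more libraries reached 1 FPKM, which 10478 did. Values were put on the scale log2(FPKM + 1), and limma 3.58.1 in R 4.3.3 was used, with 1 mean per group for the 6 groups (12 residual degrees of freedom), a variance trend, and p-values were adjusted by Benjamini-Hochberg over all rows. This scale understates changes of low genes such as Ankrd23. Group values are mean ± SD, effects are ± SE. Of the 8 members in the table, 7 passed the filter, and all 8 matched a RefSeq symbol.

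Members and lists were chosen with earlier results of these data known. All members were named. From a list, genes were named among the 4 largest called changes with groups that did not overlap, where 1 of the groups compared averaged 5 FPKM or more. Likeness took the 3 highest r values.

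Libraries sharing a replicate number deviated from their group means together (r of 0.213 to 0.587 over 45 pairs, against -0.462 to 0.0949 over the 90 other pairs), so the numbers were taken to pair the libraries, although the labels do not say where the pairing comes from. Deviations cancel within each group, so the r values of the 90 other pairs are not independent of those of the 45. The model has no block, so the deviation that paired libraries share stays in the spread behind its SE and p-values. The other settings tried were the replicate block, other pseudocounts (0.1, 0.5), other filters (none, or 5 FPKM), median-ratio scaling, quantile normalization, a fit to the compared groups alone, and omission of each library. Python 3.11.15 with pandas 2.3.3, numpy 2.4.6 and matplotlib 3.10.9 made tables and figures.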

Additional observations from a re-analysis of the deposited data

Results flagged for a closer look

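Libraries with Senexin A lay on opposite sides of their controls with and without PE for Ankrd1 at 10 µM and for Fhl1 at both doses. At 50 µM this did not hold for Ankrd1, whose S50 libraries (2411 to 3871 FPKM) overlapped Vehicle. For Ankrd1 at 10 µM, PE+S10 libraries (4814 to 5609 FPKM) all lay below PE libraries (6996 to 7972), while S10 libraries (3038 to 4373) all lay above Vehicle libraries (2042 to 2555). The effect with PE minus the effect without PE was -1.27 on the log2 scale (SE 0.25), and -0.93 after quantile normalization. For Fhl1 at 10 µM, PE+S10 (1726 to 1948 FPKM) lay below PE (2469 to 2757) and S10 (569 to 797) above Vehicle (342 to 449.7), a difference of -1.31 (SE 0.20). For Fhl1 at 50 µM, PE+S50 (1004 to 1293 FPKM) lay below PE and S50 (549 to 724) above Vehicle, a difference of -2.01 (SE 0.20). After quantile normalization that difference was -1.74. These differences are given without a p-value, because part of each was known when the members were chosen.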

How the results depend on the processing

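With the planned settings, 575 single-member refits kept direction and side of the threshold, or moved under 1 SD where no p was used. Of the others, 11 passed only there, 3 no longer passed, 14 moved and 2 tested values changed sign. Those 2 came from quantile normalization, at 50 µM against Vehicle: Ankrd1 at -0.20 and Fhl2 at -0.11, neither of which passed. Described values that crossed 0 but moved by less than 1 SD are counted among the 575. They were Ankrd1 for PE+S50 against PE+S10 (-0.02 to 0.09) and Nrap for the difference of PE responses at 50 µM (-0.004 to 0.11). When 1 library was left out, 524 values held, 14 no longer passed, 4 passed only there and 4 tested values that had not passed changed sign. They were Ankrd23 with PE at 50 µM (0.12 without PE+S50 replicate 2, and -0.31 to 0.12 over all omissions), Ankrd23 at 10 µM against Vehicle (0.11 without Vehicle replicate 1, and -0.31 to 0.11), and Fhl1 at 50 against 10 µM (0.12 without S10 replicate 1 and 0.10 without S50 replicate 1, and -0.12 to 0.12). The cause of these was not tested. Described values that crossed 0 but moved by less than 1 SD are counted among the 524. For PE+S50 against PE+S10 these were Ankrd23 (-0.38 to 0.05) and Ankrd1 (-0.11 to 0.05). Nrap also crossed 0 in the difference of PE responses at 50 µM (-0.08 to 0.10).

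The count of members called in the difference of PE responses at 10 µM was 3, against 1 with no filter and 6 with the replicate block. Genes of the 4 lists called with PE at 10 µM were 21, and 32 with the replicate block; at 50 µM 15 and 26; and in the difference of PE responses at 10 µM 3 and 10. Beyond the calls given beside the results, the block changed no other call of a tested member. A filter of 5 FPKM leaves no value for Ankrd23. With 1 library left out, member counts ran from 2 to 4 for PE+S10 against PE, 3 to 5 for PE+S10 against S10, and 1 to 5 for the difference at 10 µM. List genes were not refitted with single libraries left out. Absolute depth is unknown, which limits Ankrd2 and Ankrd23 most.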
